A study of Homo sapiens with 6 samples.

Results

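The SLC25 carriers are the largest family of solute transporters and sit, with few exceptions, in the inner mitochondrial membrane. They move nucleotides, phosphate, carboxylates, amino acids, cofactors and ions between the cytosol and the matrix, most of them by exchanging one substrate for another across a membrane that is otherwise closed to such molecules. In tumour cells they supply ADP to ATP synthase, return cytosolic reducing equivalents through the malate-aspartate shuttle and export citrate for lipid synthesis. Genes with a symbol starting SLC25A were read from the array annotation, each from its single-symbol probe set with the highest mean over all arrays. This gave 45 symbols among 17687 genes with 1 symbol. Of these, 44 were carrier genes and 1 was SLC25A48-AS1, a non-coding antisense RNA that is given apart. Carriers with such a symbol that were not matched are not analysed here.

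The RNA came from U87MG, an established human glioblastoma cell line grown in RPMI medium with fetal bovine serum. One group of 3 samples was exposed to 30 µM P-bi-TAT, a compound with a pair of linked tetrac units (tetrac is a derivative of thyroxine) that acts at a thyroid hormone site on the integrin αvβ3, for 24 h. The other group of 3 samples, labelled UNTREATED, was kept with PBS at pH 7.4 for the same time, and before either exposure the cells were held in medium with little serum. Each sample was hybridized to 1 Clariom S array, on which a gene is read by a set of short probes, and the values used here are on the log2 scale. The comparison asks which carriers differed in RNA level after P-bi-TAT. Separate cultures are not stated for the samples of a group, so a p-value here covers the spread from sample to sample, which may be technical, and the number of arrays limits the precision. The line has no untransformed counterpart here, and RNA level says nothing of carrier protein or transport. In bulk RNA of a culture, fewer cells with a transcript and less of it per cell cannot be told apart.

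One array stood apart and touches every value below. On P-bi-TAT replicate 1 the median of all genes was 3.52, against 4.73 and 4.76 on P-bi-TAT replicates 2 and 3 and 4.85 on each UNTREATED array. That array held 4527 distinct values, against 23072 to 23438 on the others, and 11 of the 44 carriers shared an identical value there with another carrier, against none on P-bi-TAT replicates 2 and 3 and at most 2 on an UNTREATED array. SLC25A2, SLC25A27, SLC25A36, SLC25A47 and SLC25A48 were all listed at 2.83 on it. Results are therefore given with all 6 arrays and again without P-bi-TAT replicate 1. The background was also unequal: medians of the 612 negative control probe sets were 3.20, 3.21 and 3.27 on the P-bi-TAT arrays, against 3.98, 3.79 and 3.67 on the UNTREATED arrays, and their 95th percentile, used here as the limit of detection, was 5.76, 6.01 and 6.09, against 7.72, 6.999 and 6.99. The part of these shifts in the results was not tested. Of the 7 measured markers of a mesenchymal glioblastoma line, 6 (VIM, CD44, TGFBI, LGALS1, CAV1 and ANXA2) were above that limit on all 6 arrays. Of the 6 glial markers, 5, among them GFAP and OLIG2, were above it on no array, and SOX10 on the 3 P-bi-TAT arrays only. SOX10 was at 6.41, 6.35 and 6.27 there and at 5.42, 6.24 and 6.04 on the UNTREATED arrays, where the limit was higher. Its detection therefore does not compare SOX10 levels between the groups. Measured too were 4 neuron, 3 immune and 4 epithelial or endothelial markers. Of these, CD68 (immune) and KRT8 (epithelial) were above the limit on all 6 arrays, GAD1 (neuron) on 3, and the others on none.

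The carriers lie on 18 chromosomes, 4 of them on X. RefSeq names pseudogenes for 12 of them, among them 9 for SLC25A5, 5 for SLC25A1 and 4 for SLC25A51, and a probe set may then bind RNA of a near-identical copy, so these values are uncertain. Promoter sequence, here the 250 bases before the annotated start, was held for 37 of the 44 carriers (RefSeq, GRCh38.p14, 47 entries). Shown are the promoters of the 3 carriers that passed the unadjusted limits with all arrays (SLC25A13, SLC25A14 and SLC25A4) and of SLC25A12 and SLC25A5, near relatives of SLC25A13 and SLC25A4 that did not. Capitals mark matches to short motifs that were searched on both strands. One is the letters GGGCGG of the GC box, which the factor Sp1 is known to bind. Another is the sequence CCAAT that gives its box the name. The third is TATAAA, a core promoter element. The fourth is the ETS factor motif with the letters CCGGAAG. The fifth, CACGTG, is the E-box of Myc and related factors. The cAMP response element, searched as TGACGTCA, was found in none of the 5 promoters. A CCAAT box and a GC box may adjoin, and marked motifs of the same kind do not overlap.
SLC25A13, chr7:96322099-96322348, minus strand: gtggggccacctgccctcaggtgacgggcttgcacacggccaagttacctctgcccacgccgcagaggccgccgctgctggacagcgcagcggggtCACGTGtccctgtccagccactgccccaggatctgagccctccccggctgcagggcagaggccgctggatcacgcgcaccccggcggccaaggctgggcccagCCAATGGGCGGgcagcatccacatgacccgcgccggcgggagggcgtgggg
SLC25A12, chr2:171894245-171894494, minus strand: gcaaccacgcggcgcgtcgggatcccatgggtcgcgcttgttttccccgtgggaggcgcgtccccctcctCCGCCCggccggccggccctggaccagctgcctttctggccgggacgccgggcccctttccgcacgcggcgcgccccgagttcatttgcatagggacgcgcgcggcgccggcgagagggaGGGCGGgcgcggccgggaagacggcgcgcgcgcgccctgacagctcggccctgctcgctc
SLC25A14, chrX:130339669-130339918, plus strand: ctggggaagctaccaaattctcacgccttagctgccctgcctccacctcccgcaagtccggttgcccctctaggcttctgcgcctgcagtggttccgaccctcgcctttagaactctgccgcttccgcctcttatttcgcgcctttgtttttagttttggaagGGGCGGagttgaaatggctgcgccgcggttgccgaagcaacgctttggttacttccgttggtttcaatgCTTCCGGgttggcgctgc
SLC25A4, chr4:185143016-185143265, plus strand: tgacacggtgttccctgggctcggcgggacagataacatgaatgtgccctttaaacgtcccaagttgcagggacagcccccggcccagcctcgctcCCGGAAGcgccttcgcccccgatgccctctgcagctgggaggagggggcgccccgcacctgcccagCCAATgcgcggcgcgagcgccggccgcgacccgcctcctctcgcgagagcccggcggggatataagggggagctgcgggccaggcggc
SLC25A5, chrX:119468194-119468443, plus strand: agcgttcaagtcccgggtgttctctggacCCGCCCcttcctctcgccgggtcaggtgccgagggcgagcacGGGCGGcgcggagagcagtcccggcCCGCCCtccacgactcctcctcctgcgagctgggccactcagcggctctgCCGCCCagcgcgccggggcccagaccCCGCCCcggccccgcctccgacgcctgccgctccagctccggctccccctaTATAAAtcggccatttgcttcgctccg
The related pairs share few of these motifs. SLC25A5 held 5 GC boxes and a TATA box close to its start, whereas SLC25A4 held no GC box and had 1 CCAAT box and 1 ETS motif. SLC25A13 held 1 CCAAT box directly before 1 GC box, and 1 E-box, and SLC25A12 held 2 GC boxes only. SLC25A14 held 1 GC box and, on the other strand, 1 ETS motif. Over the family the GC box was found in 73.0% of the 37 carriers with a promoter, against 42.6% of all 35116 promoters, the ETS motif in 29.7%, against 8.52%, and the E-box in 21.6%, against 6.34%. The CCAAT box was found in 48.6%, against 32.0%, the cAMP response element in 8.11%, against 1.65%, and TATAAA in 8.11%, against 10.7%. A carrier counts here if any of its entries holds the motif, while the second share is per entry, and the median GC content was 64.8% in the carriers' promoters and 58.0% in all. A match is a description of these letters and not a shown binding site.

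Most carriers, like most genes, had a mean over 6 arrays that was not above the mean limit of detection. Of the 44, 18 (40.9%) were above the limit of detection on no array, against 57.2% of all genes, and 8 (18.2%) on all 6 arrays, against 16.2%. Those 8 were SLC25A5, SLC25A11, SLC25A13, SLC25A26, SLC25A32, SLC25A38, SLC25A46 and SLC25A51. The mean over 6 arrays was above the mean limit of 6.59 for 15 carriers (34.1%), against 30% of all genes. The carriers above the limit numbered 9, 26 and 24 on P-bi-TAT replicates 1, 2 and 3, against 11, 17 and 17 on the UNTREATED arrays. The limit was lower on the P-bi-TAT arrays, so these counts do not compare carrier levels between the groups. SLC25A1, for example, was counted at 7.60 on P-bi-TAT replicate 2 but not at 7.62 on UNTREATED replicate 1. For 10 carriers one or both group means did not exceed the average negative control median of the same arrays (3.23 P-bi-TAT, 3.81 UNTREATED), and no size of a difference is quoted for them: SLC25A2, SLC25A21, SLC25A23, SLC25A45, SLC25A48 and SLC25A53 in both groups, SLC25A41 after P-bi-TAT, and SLC25A27, SLC25A29 and SLC25A42 in UNTREATED cells. They stay in the counts and medians over the 44 and are plotted with open symbols.

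After adjustment over all gene probe sets by limma, no carrier and none of the 17687 genes was under 0.05 (lowest adjusted p = 0.847), while 914 genes (5.17%) and 3 carriers had an unadjusted p under 0.05. At 1.5-fold and an unadjusted p under 0.05, 3 of 44 carriers (6.82%) were lower after P-bi-TAT, SLC25A4, SLC25A13 and SLC25A14, against 880 genes (4.98%). No carrier was higher at these limits, against 34 genes (0.192%). Without P-bi-TAT replicate 1 again no carrier and no gene reached this threshold by limma (lowest adjusted p = 0.0988), with 2577 genes (14.6%) and 4 carriers at an unadjusted p under 0.05. At 1.5-fold and an unadjusted p under 0.05, 3 carriers (6.82%) were then higher, SLC25A22, SLC25A39 and SLC25A51, against 9.26% of all genes. One carrier (2.27%) was then lower, SLC25A41, which is among the 10 near background, against 5.31% of all genes. These counts of at most 3 carriers lie close to or below the shares of all genes.

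The direction of the family depended on the array. On P-bi-TAT replicate 1 all 44 carriers were below the UNTREATED mean, as were 91.6% of all genes, and 41 were below every UNTREATED array (93.2%, against 75% of all genes). On replicate 2, 29 carriers were above that mean (65.9%, against 48.9% of all genes), and on replicate 3, 28 were (63.6%, against 49.9%). The median log2 difference of the carriers from the UNTREATED mean was -1.40, 0.48 and 0.41 on replicates 1, 2 and 3, and that of all genes -1.23, -0.02 and -0.0019. Below the mean on replicate 1 and above it on both others were 27 carriers (61.4%), against 36.8% of all genes. On all 3 arrays 14 carriers were below the mean (31.8%, against 37.3%) and 0 were above it (against 2.92%). Fitted over all 6 arrays the carriers' median was -0.38, against -0.43 for all genes, with 8 above 0 (18.2%, against 21.3%). Without replicate 1 the median was 0.46, against -0.01, with 29 above 0 (65.9%, against 49.3%).

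The carriers were also set beside all genes of the same level class. The classes were made from these same arrays, P-bi-TAT included, so the values are a description and do not show what level contributes. Among carriers above the limit of detection on no array the median log2 differences on the P-bi-TAT arrays were -0.82, -0.16 and -0.34, beside -0.69, -0.29 and -0.27 for all such genes. Among those above it on 1 to 5 arrays they were -2.58, 0.71 and 0.46, beside -2.41, 0.49 and 0.60. Among those above it on all 6 they were -2.09, 0.52 and 0.69, beside -2.20, 0.39 and 0.32. Among the 15 brighter carriers 12 (80%) were below the UNTREATED mean on replicate 1 and above it on both others, against 62% of the genes of that level. Without replicate 1, 1 of these 15 (6.67%) was higher at the unadjusted limits, against 19.1% of such genes.

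**Figure D1:**
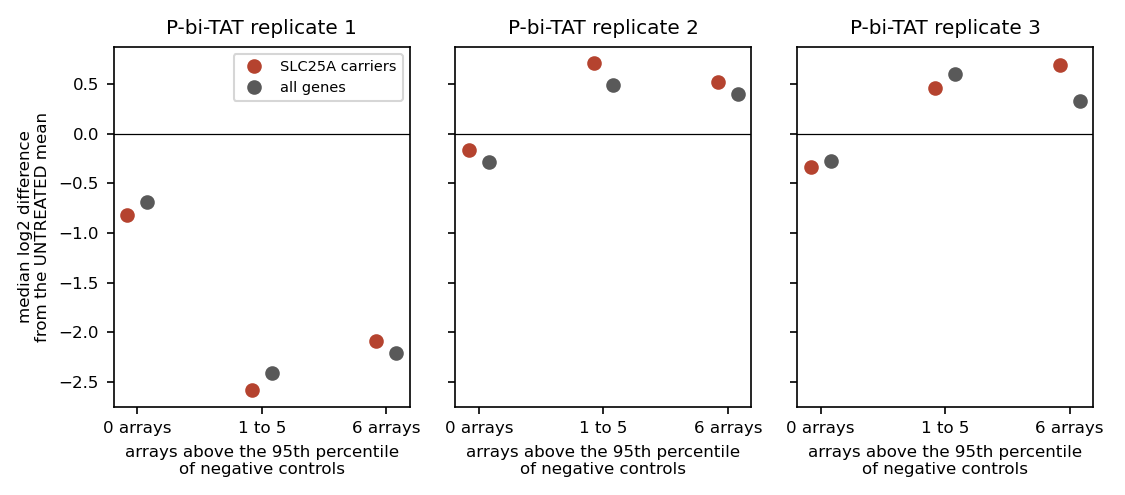
Median log2 difference from the mean of the UNTREATED arrays (vertical axis) for the SLC25A carriers and for all genes, by the number of arrays on which a gene was above the 95th percentile of the negative controls, with 1 panel per P-bi-TAT array. On replicate 1 every median is below 0, and on replicates 2 and 3 the medians of the dimmest class are below 0 and the others above it, at 0.69 for the carriers and 0.32 for all genes in the brightest class of replicate 3.

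Outside the 10 carriers near background, the largest differences between P-bi-TAT replicates 2 and 3 were 1.16 for SLC25A4 and 1.13 for SLC25A36. The median SD of a carrier was 1.16 over the 3 P-bi-TAT arrays, 0.22 over P-bi-TAT replicates 2 and 3 alone, and 0.57 over the UNTREATED arrays. With replicate 1 left out, the spread of the P-bi-TAT group may thus be understated, and the fit without it rests on 2 arrays against 3.

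**Figure D2:**
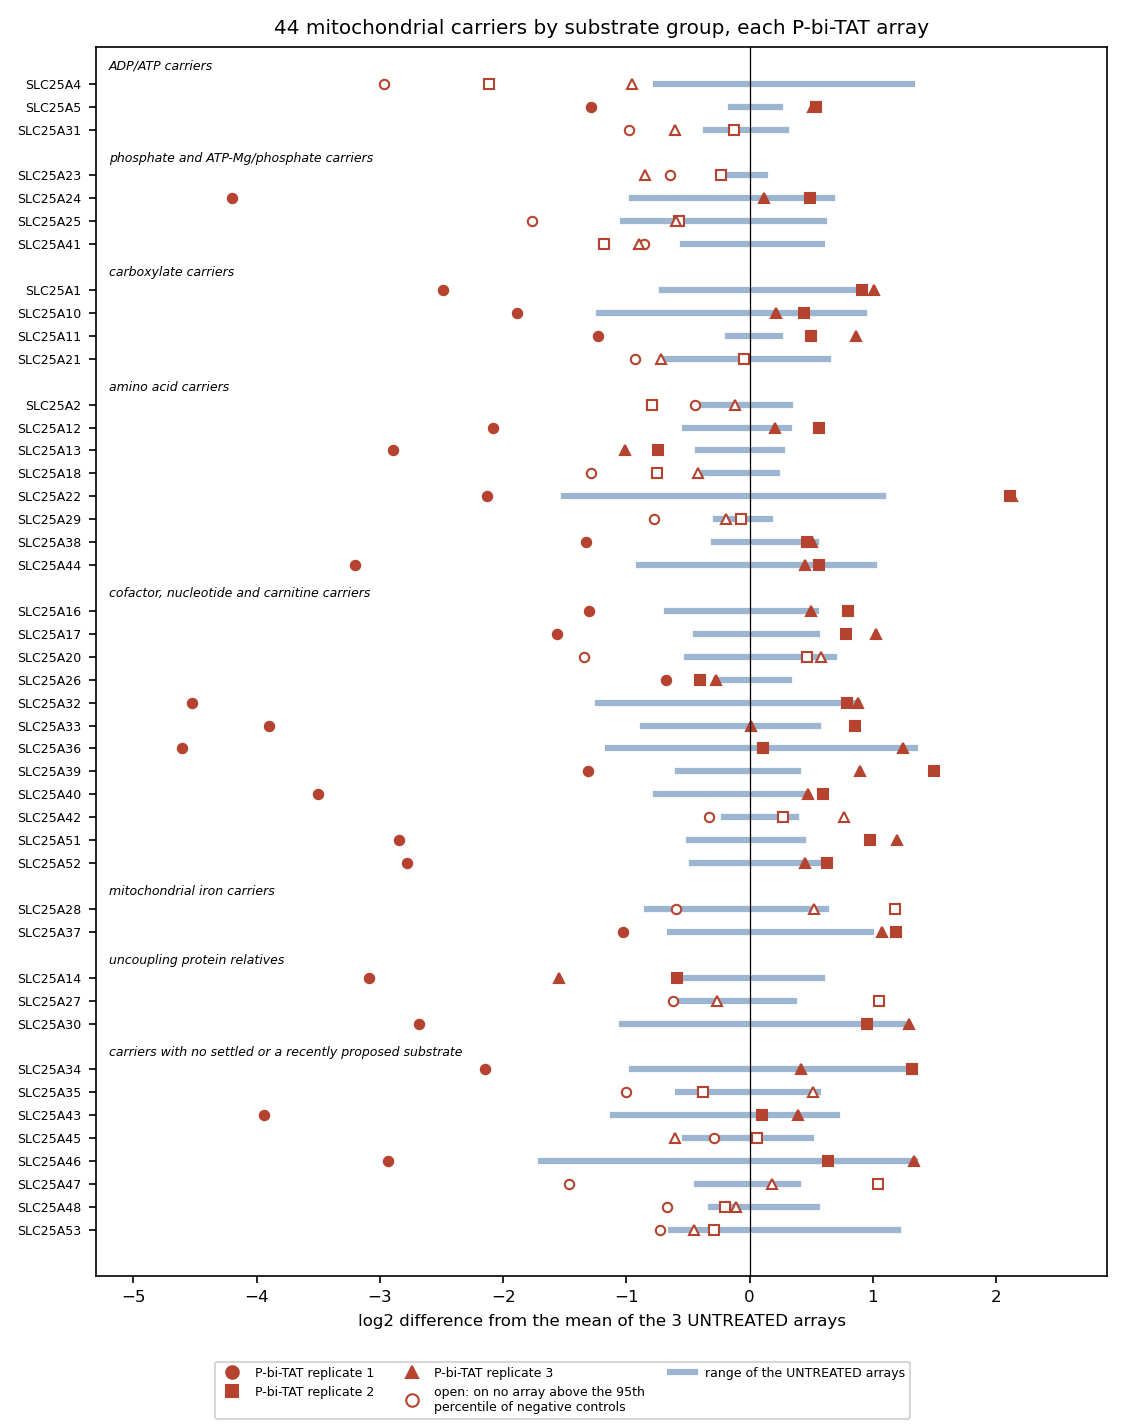
Log2 difference of each P-bi-TAT array from the mean of the 3 UNTREATED arrays for the 44 carriers, sorted by substrate, with the range of the UNTREATED arrays as a bar and open symbols for carriers above the 95th percentile of the negative controls on no array. Replicate 1 (circles) lies left of 0 for all 44 carriers, while replicates 2 and 3 lie right of it for most detected carriers but not for SLC25A13, SLC25A14 and SLC25A26.

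The ADP/ATP carriers exchange matrix ATP for cytosolic ADP. Of the 4 listed, 3 were measured, and SLC25A6 was not matched. SLC25A5, the form typical of growing cells, was far above the limit of detection on every array, at 13.30, 15.13 and 15.11 after P-bi-TAT and 14.84, 14.49 and 14.44 in UNTREATED cells. It was below every UNTREATED array on replicate 1 and above every one on replicates 2 and 3, and the log2 difference was -0.08 ± 0.59 (SE) with all arrays and 0.53 ± 0.37 (SE) without replicate 1. SLC25A4, the form typical of heart and skeletal muscle, was at 2.92, 3.77 and 4.92 after P-bi-TAT and 7.19, 5.12 and 5.32 in UNTREATED cells, above the limit of detection on no array. All P-bi-TAT arrays were below all UNTREATED arrays, as for 5 carriers (11.4%) and 14.5% of all genes, while no carrier had all P-bi-TAT arrays above all UNTREATED arrays (0.758% of all genes), with a log2 difference of -2.01 ± 0.76 (SE) (limma, unadjusted p = 0.033, adjusted p = 0.847). These values are near background, with P-bi-TAT replicate 1 under its negative control median of 3.20, so the fitted size is no measured fold. Leaving out P-bi-TAT replicate 1, P-bi-TAT replicate 2 or UNTREATED replicate 1, the array with its highest value, ended the call (unadjusted p = 0.0536, 0.0748 and 0.103 by limma). SLC25A4 was also not called after quantile normalization without P-bi-TAT replicate 1 (limma, unadjusted p = 0.0703) or with the one-way test of the methods. A filter on the dimmest probe sets, a trend in eBayes and robust eBayes kept the call. SLC25A31, the germ cell form, was at 3.01, 3.86 and 3.38 after P-bi-TAT and 3.63, 4.04 and 4.28 in UNTREATED cells, above the limit of detection on no array.

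Aspartate and glutamate carriers bring aspartate out of the matrix in the malate-aspartate shuttle. SLC25A13 (citrin) was the only carrier lower at the unadjusted limits that was above the limit of detection on all 6 arrays. It was at 7.05, 9.21 and 8.94 after P-bi-TAT and 9.53, 10.10 and 10.21 in UNTREATED cells. All P-bi-TAT arrays were below all UNTREATED arrays, also with replicate 1 set aside (exact permutation test over the 6 arrays, two-sided p = 0.1, the smallest that 3 against 3 allow). The log2 difference was -1.55 ± 0.65 (SE) (limma, unadjusted p = 0.048, adjusted p = 0.847) and -0.88 ± 0.40 (SE) without replicate 1 (unadjusted p = 0.0597), and among single arrays left out only P-bi-TAT replicate 2 left the call standing. Quantile normalization gave -1.27 without P-bi-TAT replicate 1 (limma, unadjusted p = 0.012) but -0.92 over all 6 arrays (unadjusted p = 0.0628), and median centring gave -1.04 over all 6 (unadjusted p = 0.0651), both of which ended the call. SLC25A13 was also not called with the dimmest probe sets left out, with a trend in eBayes, with robust eBayes or with the one-way test of the methods. Removing each array's intensity trend kept the call (limma, unadjusted p = 0.037). Its relative SLC25A12 (aralar), which does the same exchange, was at 5.54, 8.19 and 7.83 after P-bi-TAT and 7.94, 7.10 and 7.83 in UNTREATED cells. Those groups overlapped, and the log2 difference without replicate 1 was 0.38 ± 0.42 (SE). The difference between SLC25A13 and SLC25A12 was not tested.

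The other amino acid carriers showed no common direction. SLC25A22, which imports glutamate with a proton, was at 3.52, 7.76 and 7.78 after P-bi-TAT and 6.73, 4.14 and 6.07 in UNTREATED cells. Replicates 2 and 3 were above every UNTREATED array and replicate 1 below every one. It was above the limit of detection on P-bi-TAT replicates 2 and 3 and on no UNTREATED array, so the size of a difference is uncertain. The fitted log2 difference without replicate 1 was 2.12 ± 0.71 (SE) (limma, unadjusted p = 0.017). It was 0.70 with all arrays and 1.80 after quantile normalization of the 5 arrays (limma, unadjusted p = 0.053). SLC25A38, which carries glycine for haem synthesis, was at 9.56, 11.36 and 11.39 after P-bi-TAT and 11.42, 10.64 and 10.60 in UNTREATED cells, and the groups overlapped. SLC25A18, the second glutamate carrier, was above the limit of detection on no array, with all P-bi-TAT arrays (3.21, 3.74 and 4.07) below all UNTREATED arrays (4.12, 4.64 and 4.72). Over the 8 measured amino acid carriers the median was -0.44 over all arrays and 0.13 without replicate 1, with 4 above 0.

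**Figure D3:**
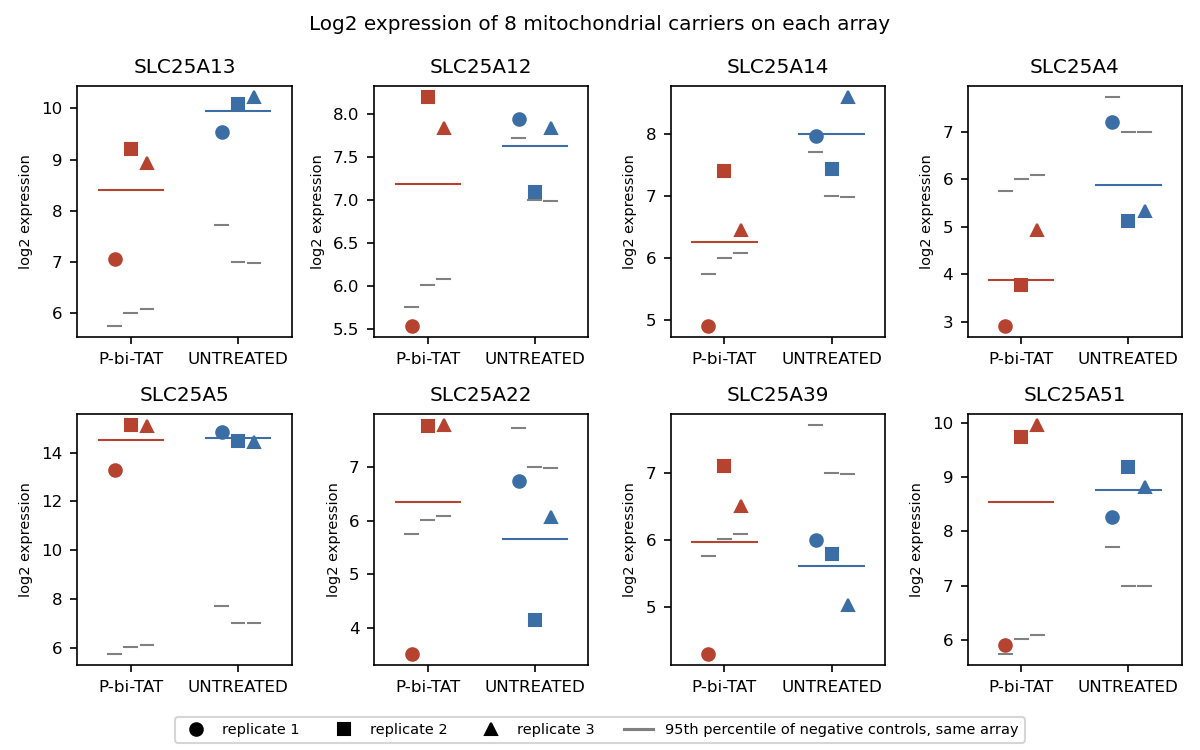
Log2 expression of 8 carriers on each array, P-bi-TAT at the left and UNTREATED at the right of each panel, with symbols for the replicate number, a coloured line at the group mean and short grey lines at the 95th percentile of the negative controls on the same array. All P-bi-TAT arrays lie below all UNTREATED arrays for SLC25A13, SLC25A14 and SLC25A4, while for SLC25A5, SLC25A22, SLC25A39 and SLC25A51 replicate 1 lies below and replicates 2 and 3 above every UNTREATED array.

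The uncoupling protein relatives resemble the brown fat uncoupler, which lets protons leak into the matrix, and their own substrates are less settled. SLC25A14 was at 4.91, 7.41 and 6.46 after P-bi-TAT and 7.97, 7.44 and 8.59 in UNTREATED cells. The groups did not overlap, but P-bi-TAT replicate 2 and UNTREATED replicate 2 were nearly equal. The log2 difference was -1.74 ± 0.71 (SE) (limma, unadjusted p = 0.043, adjusted p = 0.847) and -1.07 ± 0.49 (SE) without replicate 1 (unadjusted p = 0.0618). Among single arrays left out, only P-bi-TAT replicate 2 left the call standing, and with the 5 arrays quantile normalized it was -1.44 (limma, unadjusted p = 0.019). SLC25A14 was not called with the dimmest probe sets left out, with a trend in eBayes or with the one-way test of the methods. Robust eBayes, and quantile normalization or median centring of all 6 arrays, kept the call. SLC25A30 was at 3.75, 7.38 and 7.72 after P-bi-TAT and 6.21, 7.67 and 5.39 in UNTREATED cells, with overlapping groups and a log2 difference of 1.12 ± 0.64 (SE) without replicate 1 (unadjusted p = 0.116 by limma).

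Carboxylate carriers exchange citrate, malate, succinate and 2-oxoglutarate. SLC25A11, the oxoglutarate-malate exchanger of the malate-aspartate shuttle, was at 8.63, 10.35 and 10.72 after P-bi-TAT and 10.10, 9.78 and 9.68 in UNTREATED cells, above the limit of detection on all 6 arrays. Replicates 2 and 3 were above every UNTREATED array, with a log2 difference of 0.68 ± 0.38 (SE) without replicate 1, and of 0.045 with all arrays. SLC25A1, the citrate exporter, was at 4.20, 7.60 and 7.69 after P-bi-TAT and 7.62, 5.98 and 6.46 in UNTREATED cells, and SLC25A10, the dicarboxylate carrier, at 4.20, 6.53 and 6.30 after P-bi-TAT and 6.38, 4.86 and 7.02 in UNTREATED cells. Both overlapped between groups, and SLC25A1 was at or below the limit of detection on all UNTREATED arrays. For the 4 carriers of the group the median was -0.30 over all arrays and 0.50 without replicate 1, with 3 above 0.

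The cofactor, nucleotide and carnitine carriers were the largest substrate group, with 6 of 12 among the brighter carriers. Without replicate 1, 11 of the 12 were above 0, against 49.3% of all genes and 3824 of 5301 brighter genes. Their median was 0.59 without replicate 1 and -0.34 over all arrays. SLC25A51, the carrier that brings NAD+ into mitochondria, was at 5.91, 9.74 and 9.96 after P-bi-TAT and 8.26, 9.19 and 8.82 in UNTREATED cells, above the limit of detection on all 6 arrays. Its log2 difference was 1.09 ± 0.42 (SE) without replicate 1 (limma, unadjusted p = 0.032), 0.70 after quantile normalization of the 5 arrays (unadjusted p = 0.121) and -0.22 with all arrays. SLC25A39, which is needed for glutathione in the matrix, was at 4.30, 7.10 and 6.50 after P-bi-TAT and 6.002, 5.79 and 5.02 in UNTREATED cells, with a log2 difference of 1.20 ± 0.45 (SE) without replicate 1 (limma, unadjusted p = 0.028), 0.89 with those 5 arrays quantile normalized, and 0.36 with all arrays. SLC25A39 was above the limit of detection on no UNTREATED array, so the size of its difference is uncertain. For both carriers, replicates 2 and 3 were above every UNTREATED array, as for 8 carriers (18.2%) and 19.1% of all genes, against 5 carriers (11.4%) and 17.9% of all genes for which both were below every one. The other 6 higher ones were SLC25A5, SLC25A11, SLC25A17, SLC25A22, SLC25A37 and SLC25A40.

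SLC25A32, linked to folate and FAD supply of the matrix, was at 5.92, 11.24 and 11.33 after P-bi-TAT and 9.22, 10.80 and 11.33 in UNTREATED cells. SLC25A36, a pyrimidine nucleotide carrier, was at 2.83, 7.55 and 8.68 after P-bi-TAT and 6.28, 7.24 and 8.78 in UNTREATED cells. In both the values of replicates 2 and 3 lay close to or within the UNTREATED range, and UNTREATED replicate 1 was the lowest of its group. SLC25A26, which imports S-adenosylmethionine, was the 1 member of the 12 below 0 without replicate 1. It was at 8.11, 8.39 and 8.52 after P-bi-TAT and 8.75, 9.11 and 8.52 in UNTREATED cells, and was the detected carrier that differed least between P-bi-TAT replicate 1 and the UNTREATED mean, by -0.68.

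Both mitochondrial iron carriers, or mitoferrins, were above 0 in both fits, but neither passed a test. SLC25A37 was at 3.86, 6.08 and 5.97 after P-bi-TAT and 4.25, 5.88 and 4.54 in UNTREATED cells, with a log2 difference of 1.13 ± 0.53 (SE) without replicate 1 (unadjusted p = 0.065 by limma) and 0.41 with all arrays. SLC25A28 was at 4.09, 5.87 and 5.21 after P-bi-TAT and 3.85, 5.31 and 4.90 in UNTREATED cells. SLC25A37 was above the limit of detection on 1 array and SLC25A28 on none.

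Of 5 listed carriers of phosphate or of ATP-Mg against phosphate, 4 were measured, SLC25A23, SLC25A24, SLC25A25 and SLC25A41. All 4 are ATP-Mg/phosphate carriers, which set the adenine nucleotide pool of the matrix, and the phosphate carrier was not matched. Only SLC25A24 was detected, at 3.31, 7.996 and 7.62 after P-bi-TAT and 6.55, 7.79 and 8.18 in UNTREATED cells, with overlapping groups. SLC25A41, the carrier lower at the unadjusted limits without replicate 1, was at 3.16, 2.84 and 3.12 after P-bi-TAT and 3.48, 4.61 and 3.97 in UNTREATED cells, near the medians of the negative controls. The median of the 4 measured carriers was -0.98 with all arrays and -0.56 without replicate 1. Among the 8 carriers with no settled or a recently proposed substrate the median was -0.31 with all arrays and 0.16 without replicate 1, and none passed the unadjusted limits. SLC25A46, an outer membrane protein involved in mitochondrial shape, was at 6.77, 10.34 and 11.03 after P-bi-TAT and 8.01, 10.05 and 11.05 in UNTREATED cells, with overlapping groups. The antisense RNA SLC25A48-AS1 was at 2.97, 3.34 and 3.14 after P-bi-TAT and 2.78, 4.87 and 3.21 in UNTREATED cells, above the limit of detection on no array.

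Giving the 5 arrays without P-bi-TAT replicate 1 one distribution lowered the differences of all 15 brighter carriers, so that SLC25A13 and SLC25A14 were farther below 0. The median of the 44 carriers was then 0.14, against -0.01 for all genes, compared with 0.46 as deposited. No carrier was then higher at the unadjusted limits, and 2 were lower, SLC25A13 and SLC25A14. SLC25A5 was at 0.08 and SLC25A12 at 0.00 after that scaling, while SLC25A22 and SLC25A37 were at 1.80 and 1.03.

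**Figure D4:**
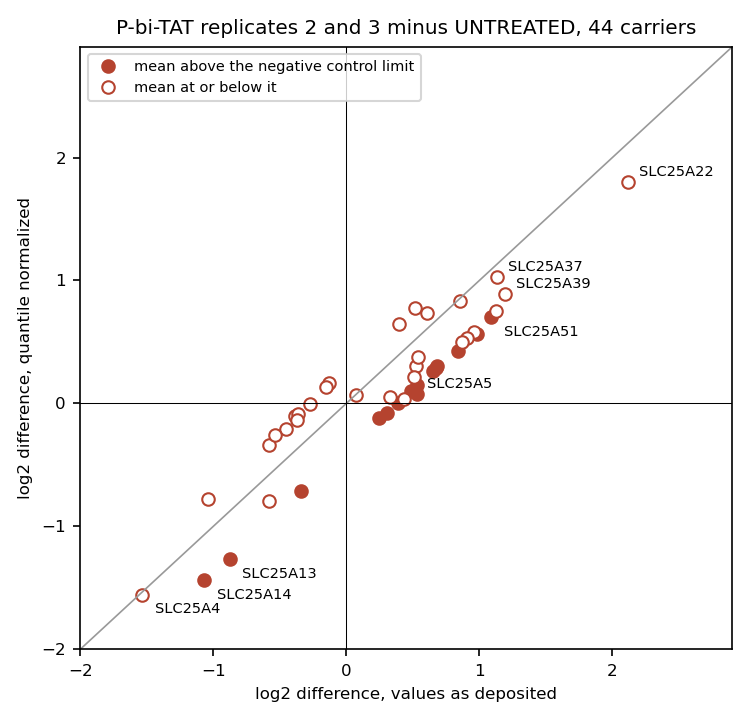
Log2 difference of P-bi-TAT replicates 2 and 3 from the UNTREATED arrays for each carrier, with values as deposited on the horizontal axis and after quantile normalization of the 5 arrays on the vertical axis. Carriers with a mean above the limit of detection (filled) lie below the line of equality, so that SLC25A13 moves to -1.27 and SLC25A51 to 0.70.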

How the data were processed

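The authors deposited log2 expression values, 1 column per array, for U87MG cells on Clariom S arrays (3 P-bi-TAT, 3 UNTREATED). RMA and the Transcriptome Analysis Console, version 4.0.1.36, appear in the submitters' processing notes, whereas SST-RMA appears in the methods, and it is open which of these the values come from. The distributions of the columns differ, and the values were used as deposited. Groups came from the sample labels. Control probe sets (2903) were left out, and 21448 gene probe sets were fitted with limma 3.58.1 (lmFit, eBayes; R 4.3.3), and p-values were adjusted over all of them by the Benjamini-Hochberg method. Of these, 17709 had 1 symbol, standing for 17687 genes. Values are per array and relative to negative control probe sets, and levels of different genes were compared only to pick the member of a substrate group with the highest mean. Symbols came from the platform annotation and sequences from RefSeq.

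Named carriers were those at an adjusted p under 0.05, at 1.5-fold with an unadjusted p under 0.05 or with groups apart by 0.5 or more on the log2 scale, the ADP/ATP carriers, carriers listed in the study's tables, the 5 highest and 5 lowest without P-bi-TAT replicate 1, and the member of each substrate group with the highest mean. SLC25A6, an ADP/ATP carrier that the study's tables list, was not matched and has no values here. SLC25A12, SLC25A26, SLC25A28 and SLC25A48-AS1 were added after their values were seen. The carriers, lists and rule were chosen with earlier results of these data known.

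Alternatives left out each array, used the replicate number as a block, quantile normalization (also without P-bi-TAT replicate 1), median centring, removal of each array's intensity trend, a filter on the dimmest 33.3% of probe sets, eBayes with a trend or robust, array weights, the one-way test of the methods and the mean of a gene's probe sets.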

Additional observations from a re-analysis of the deposited data

How the results depend on the processing

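With 3 arrays a group, no adjusted call and an array that stands apart, the counts depended on the setting, and the causes were not tested. The highest and lowest values on leaving out 1 array each were 3 and 0 carriers higher, 2 and 1 lower, medians of 0.46 and -0.74, 29 and 3 carriers above 0, 1638 and 7 genes higher, 939 and 568 lower, and 0 adjusted throughout.

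Quantile normalization gave 675 genes higher and 552 lower, and 992 and 857 when P-bi-TAT replicate 1 was also left out. Median centring gave 381 and 220, and array weights 1928 and 1694. Without the dimmest probe sets 12 genes were higher and 276 lower, with 1 carrier lower, SLC25A4. Higher genes numbered 765 with the intensity trend removed and 57 with a trend in eBayes. Carriers above 0 numbered 23, 27, 25, 29 and 29 with quantile normalization, median centring, trend removal, 5 quantile-normalized arrays and array weights, with medians of 0.078, 0.13, 0.072, 0.14 and 0.37. Array weights gave 7 adjusted genes and 4 carriers higher (SLC25A1, SLC25A17, SLC25A22, SLC25A39) and 4 lower (SLC25A4, SLC25A13, SLC25A14, SLC25A41). The one-way test gave 1 adjusted gene and 1 carrier lower, SLC25A41. The replicate block gave 3 carriers lower and 0 higher, 30 genes higher and 765 lower, and the 3 were again SLC25A4, SLC25A13 and SLC25A14. Deviations of same-numbered arrays correlated at 0.30, 0.04 and 0.33. The same number was the best match for P-bi-TAT replicates 1 and 3, while P-bi-TAT replicate 2 correlated best with UNTREATED replicate 3. Whether the numbers mark pairs is open, since the labels give only a replicate number, and the main fit did not use them.

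Of the log2 differences that turned sign, those after quantile normalization were 0.20 (SLC25A1), 0.065 (SLC25A10), 0.090 (SLC25A30), 0.41 (SLC25A38), 0.27 (SLC25A46) and 0.40 (SLC25A51). Median centring gave 0.32 (SLC25A1), 0.43 (SLC25A5), 0.099 (SLC25A10), 0.36 (SLC25A30), 0.39 (SLC25A38), 0.19 (SLC25A46) and 0.29 (SLC25A51). Trend removal gave 0.34 (SLC25A1), 0.0017 (SLC25A5), 0.085 (SLC25A10), 0.37 (SLC25A30), 0.37 (SLC25A38), 0.24 (SLC25A46) and 0.37 (SLC25A51). The 5 quantile-normalized arrays gave 0.58 (SLC25A1), 0.077 (SLC25A5), 0.050 (SLC25A10), 0.75 (SLC25A30), 0.43 (SLC25A32), 0.29 (SLC25A36), 0.10 (SLC25A38), 0.57 (SLC25A46) and 0.70 (SLC25A51).

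Leaving out 1 array gave ranges of -0.79 to 0.96 (SLC25A1), -0.38 to 0.53 (SLC25A5), -1.02 to 0.33 (SLC25A10), -0.36 to 0.68 (SLC25A11), -0.048 to 2.12 (SLC25A22), -2.04 to 0.31 (SLC25A24), -0.86 to 1.12 (SLC25A30), -1.87 to 0.84 (SLC25A32), -2.25 to 0.68 (SLC25A36), -0.43 to 0.49 (SLC25A38), -0.21 to 1.20 (SLC25A39), -1.17 to 0.98 (SLC25A46) and -0.93 to 1.09 (SLC25A51), each with its highest value without P-bi-TAT replicate 1. SLC25A4, SLC25A13 and SLC25A14 stayed below 0 in all these settings, as did SLC25A18, SLC25A31 and SLC25A41, while SLC25A37 stayed above 0.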

Other observations

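Genes that work beside the carriers were read from lists sorted by function. Of the malate-aspartate shuttle enzymes, MDH2, the matrix malate dehydrogenase, was at 7.13, 11.66 and 11.94 after P-bi-TAT and 8.73, 9.28 and 9.76 in UNTREATED cells, with a log2 difference of 2.54 and a standard error of 0.43 without P-bi-TAT replicate 1 and 0.99 with all arrays. GOT2, the matrix aspartate aminotransferase, was at 9.97, 12.65 and 12.30 after P-bi-TAT and 11.74, 11.35 and 11.61 in UNTREATED cells. Both were higher at 1.5-fold and an unadjusted p under 0.05 without replicate 1, as were 9.26% of all genes and 19.1% of genes with a mean above the limit of detection, to which all 4 enzymes belong, and none of the 4 enzymes was so with all arrays. Their cytosolic counterparts were at 8.25, 10.60 and 10.43 (GOT1) and 6.86, 8.51 and 8.01 (MDH1) after P-bi-TAT, against 11.69, 10.11 and 10.16 and 6.82, 8.33 and 6.14 in UNTREATED cells, and did not pass these limits in either fit.

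Of 18 other mitochondrial membrane transporters, 6 were higher at these limits and 1 lower without replicate 1, and 0 were higher and 2 lower with all arrays. The shares of all genes were 9.26% higher and 5.31% lower without replicate 1, and 0.192% and 4.98% with all arrays. Of the 18, 12 had a mean above the limit of detection, and of genes at that level 19.1% were higher without replicate 1. Among the 6, ABCB8 and ABCB10 did not have a mean above the limit, so that share does not apply to them. ABCB8 was above the limit of detection on no array, and ABCB10 on no UNTREATED array. SFXN1, a sideroflexin that carries serine into mitochondria, was at 5.18, 9.41 and 9.73 after P-bi-TAT and 7.84, 6.23 and 7.27 in UNTREATED cells. LETM1, an ion exchanger of the inner membrane, was at 7.72, 9.89 and 9.52 after P-bi-TAT and 11.19, 11.32 and 10.15 in UNTREATED cells, with all P-bi-TAT arrays below all UNTREATED arrays and a log2 difference of -1.84 with all arrays (limma, unadjusted p = 0.031) and -1.18 without replicate 1 (unadjusted p = 0.036). MCU, the pore of the calcium uniporter, was at 6.11, 10.65 and 10.23 after P-bi-TAT and 9.54, 9.48 and 8.82 in UNTREATED cells. Family members under other symbols were UCP1, UCP2 and UCP3, which were above the limit of detection on no array (UCP1 was lower at these limits in both fits, but its mean after P-bi-TAT was not above the negative control medians), and MTCH1 and MTCH2, which were above it on all 6 and passed no limit. MTCH2, an outer membrane insertase, was at 13.94, 14.91 and 14.79 after P-bi-TAT and 15.42, 14.97 and 15.19 in UNTREATED cells. No gene named in this section had an adjusted p under 0.05, and all were picked after their values were seen.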
